A study of Homo sapiens with 8 samples.

Results

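H19 and 8 other imprinted genes were examined by name in a table of 25369 genes, and all 9 were found there. Of these, 5 lie in the imprinted region of chromosome 11p15 (H19, IGF2, CDKN1C, PHLDA2 and KCNQ1OT1) and 4 lie elsewhere and serve as a contrast (MEST, PEG10, PEG3 and MEG3). The set was chosen by name around H19, which was selected on its measured change, the level in HIF1A-KD over that in shCtrl in these same libraries. All values of the 9 genes in that comparison are therefore given as a description, without p-values.

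The 8 RNA-seq libraries come from EPC2-hTERT, esophageal epithelial cells of human origin made immortal by telomerase. The HIF1A-KD line carries a lentiviral short hairpin RNA that lowers HIF1A, the gene of the HIF-1 subunit that low oxygen stabilises, and the shCtrl line carries a control hairpin. Each has 4 libraries, numbered 1 to 4 in the labels, which do not say what the number marks or whether a line is a clone. Nothing in the labels states that libraries of a group came from separate cultures, so errors describe the spread between libraries. Both lines grew in serum-free keratinocyte medium with bovine pituitary extract (50 µg/ml) and epidermal growth factor (1 ng/ml). They were kept for 2 days to confluence on 0.4 µm membranes, 5 days with 1.8 mM calcium chloride and 4 days in contact with air. The labels also mention a vehicle and a hydroxylase inhibitor without tying either to a library.

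In an imprinted gene the copy inherited from either the mother or the father is silenced, and the choice is kept by DNA methylation at a control region. At the telomeric end of the 11p15 domain, the noncoding RNA H19 is made from the maternal copy and the growth factor gene IGF2 from the paternal copy. The insulator protein CTCF binds the unmethylated maternal control region and keeps shared enhancers from IGF2. At the centromeric end, the noncoding RNA KCNQ1OT1 is made from the paternal copy, on which it silences CDKN1C, a cyclin-dependent kinase inhibitor, and PHLDA2, which restrains placental growth. H19 is abundant in fetal tissues and placenta and mostly low in adult tissues. It is also the host transcript of the microRNA miR-675.

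Shown are a RefSeq start of H19 and, for contrast, one of the almost unread noncoding RNA MEG3. They were chosen because their RNAs stood at opposite ends of the levels among the noncoding members. Each window runs from 250 bases before to 50 bases after a RefSeq start in build GRCh38.p14, and capitals mark CG, the dinucleotide that is methylated in imprinting. The H19 window is chr11:2001217-2001516 on the minus strand, and that of MEG3, the earliest of its 3 listed starts, is chr14:100825858-100826157 on the plus strand. The H19 start used is not that of the H19 entry measured here. In GRCh38.p14 miR-675-5p lies at 1996800-1996822. In hg19, the build of the measured entries, MIR675 lies at 2017989-2018061 and H19 begins at 2019065. Placed by that microRNA, the window lies upstream of the measured start and does not describe the promoter of that entry.
H19 promoter: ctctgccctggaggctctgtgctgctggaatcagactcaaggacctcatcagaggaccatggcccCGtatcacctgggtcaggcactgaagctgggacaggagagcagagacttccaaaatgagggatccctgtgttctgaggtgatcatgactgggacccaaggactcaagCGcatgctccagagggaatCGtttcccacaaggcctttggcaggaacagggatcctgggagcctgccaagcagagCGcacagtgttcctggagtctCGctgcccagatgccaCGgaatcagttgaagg
MEG3 promoter: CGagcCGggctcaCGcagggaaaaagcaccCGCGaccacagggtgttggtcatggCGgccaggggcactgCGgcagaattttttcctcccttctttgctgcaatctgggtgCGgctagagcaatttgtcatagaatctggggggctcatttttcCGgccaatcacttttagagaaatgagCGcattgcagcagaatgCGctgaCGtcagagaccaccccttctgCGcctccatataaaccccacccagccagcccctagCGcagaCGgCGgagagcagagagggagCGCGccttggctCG

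The H19 window held 6 CG, fewer than the median of 14 over 35116 promoter windows of the same length, and the MEG3 window held 19. Both letter strings of the HIF-1 recognition core, ACGTG and GCGTG, were searched on both strands. The H19 window held neither, whereas the MEG3 window held GCGTG. That contrast depends on the start chosen, since the MEG3 window that begins at 100825882 held neither. Of the MEST windows, the one that begins at 130491079 held ACGTG and the others held neither. At least one of them was present in 48.4% of all windows, ACGTG in 21.4% and GCGTG in 36.5%. The table of promoter sequences matched 3 of the 9 genes, the third being MEST.

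The microRNA hairpin inside H19 is shown because its host was the most abundant gene of the set. Its 2 mature strands have different seeds (bases 2 to 8, in capitals).
hsa-miR-675-5p: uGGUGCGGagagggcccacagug
hsa-miR-675-3p: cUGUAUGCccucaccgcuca

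These libraries do not measure mature microRNAs. The table's own entry for MIR675, which lies wholly inside H19 on the same strand, was listed at 0 in all 8 libraries. The sources used here do not give the rule for reads in overlapping genes.

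H19 was the most abundant of the 9 genes in every library and several-fold higher in HIF1A-KD. In hg19, the build of the table's coordinates, it lies on chromosome 11 from 2016406 to 2019065, minus strand. H19 held 1132, 806, 1297 and 1410 RPKM in HIF1A-KD libraries 1 to 4, against 265, 107, 251 and 392 RPKM in shCtrl libraries 1 to 4. RPKM is the number of reads scaled to gene length and to the reads of the library. The lowest HIF1A-KD library, number 2, still lay above the highest shCtrl library, number 4, so the groups did not overlap. H19 was the only 1 of the 6 members that passed the filter on low values, described below, for which this was so. Among all tested genes the groups did not overlap in 5.40%, with HIF1A-KD higher in 3.27% and lower in 2.13%. Because H19 was picked for its difference, nothing is read from that count.

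The means of H19 were 1161 ± 263 RPKM in HIF1A-KD and 254 ± 117 RPKM in shCtrl (SD, n = 4 each). The ratio of HIF1A-KD to shCtrl within numbers 1 to 4 was 4.27, 7.51, 5.17 and 3.59. On the log2(RPKM + 0.1) scale the change was 2.30 (SE 0.37), and 22 of 11899 tested genes had a larger one. Its values rest on 119214, 121518, 141302 and 123913 reads in HIF1A-KD and on 29631, 10698, 30326 and 43272 reads in shCtrl, so counting error is small beside the spread between libraries. By level it ranked from 42nd to 101st of 25369 genes in HIF1A-KD and from 166th to 546th in shCtrl. It took 0.186% to 0.326% of all reads in HIF1A-KD and 0.0248% to 0.0906% in shCtrl. In RNA from whole cultures, fewer cells that express a gene and less RNA per cell cannot be told apart.

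IGF2, whose start is 151.8 kb from that of H19, encodes the insulin-like growth factor that binds IGF1R. It lies at chromosome 11, 2150347 to 2170833, minus strand (hg19), and was present at a small fraction of the H19 level. IGF2 held 2.53, 1.81, 9.23 and 8.23 RPKM in HIF1A-KD libraries 1 to 4, against 0.594, 0.416, 3.09 and 3.77 RPKM in shCtrl libraries 1 to 4. HIF1A-KD was higher within each of the 4 numbers, by 4.27, 4.37, 2.99 and 2.18-fold. The groups overlapped, since HIF1A-KD 1 and 2 lay below shCtrl 3 and 4. The log2 change was 1.62, with an SE of 0.78, and of 0.20 when the library number was added to the fit as a block.

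IGF2 also differed between libraries of one group. Numbers 3 and 4 averaged 4.01 times the level of numbers 1 and 2 in HIF1A-KD and 6.79 times in shCtrl. H19 moved the same way by less, 1.40 and 1.73 times. The libraries numbered 1 and 2 part from those numbered 3 and 4 along the leading axis of variation of all tested genes, an unlabelled split. Within numbers 1 and 2 the log2 changes were 2.50 for H19 and 1.91 for IGF2, and within numbers 3 and 4 they were 2.11 and 1.33.

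The ratio of H19 to IGF2, both in RPKM, was 447, 444, 141 and 171 in HIF1A-KD 1 to 4 and 447, 258, 81.3 and 104 in shCtrl 1 to 4. It was nearly equal in both libraries of number 1 and higher in HIF1A-KD within the other numbers. Reads that overlap INS-IGF2 or the antisense IGF2-AS could have been split from IGF2. INS-IGF2 was at most 0.0119 RPKM and IGF2-AS at most 0.186 RPKM in any library. INS-IGF2 overlaps IGF2 on the same strand over 20487 bases, the whole of the IGF2 entry. If shared reads were counted for neither gene, these low values do not show how many IGF2 lost. The ratio of H19 to IGF2 carries that uncertainty.

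**Figure D1:**
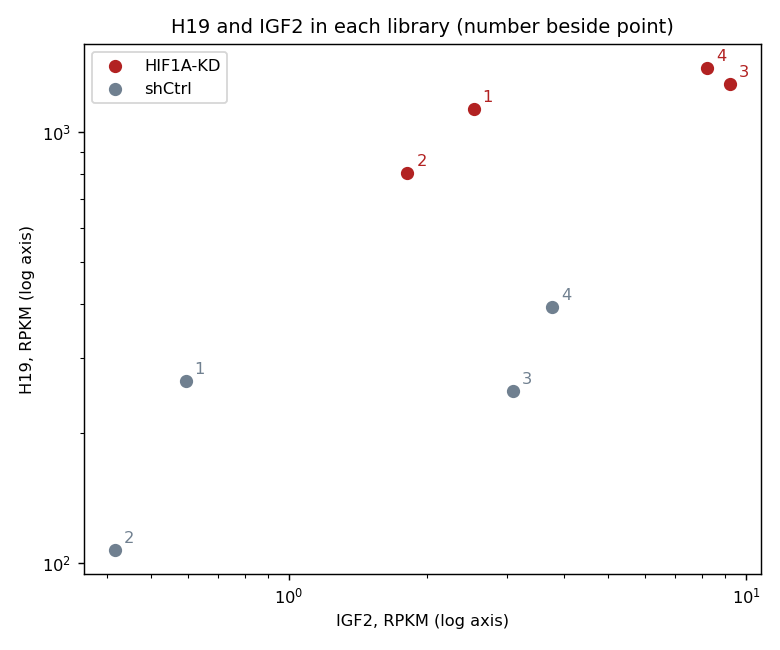
H19 against IGF2 in each library, both in RPKM on log axes, with the library number beside each point and the hairpin by colour. The 4 HIF1A-KD points lie above all shCtrl points along the H19 axis (806 to 1410 against 107 to 392 RPKM), while along the IGF2 axis numbers 3 and 4 of shCtrl lie to the right of numbers 1 and 2 of HIF1A-KD.

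The centromeric genes of 11p15 showed no separation of the groups. CDKN1C, the cyclin-dependent kinase inhibitor p57, lies at chromosome 11, 2904448 to 2906995, minus strand (hg19), and starts 887.9 kb from H19. It held 9.39, 4.50, 3.42 and 3.35 RPKM in HIF1A-KD 1 to 4, against 6.67, 6.30, 5.48 and 4.86 RPKM in shCtrl 1 to 4. HIF1A-KD 1 was the highest of all 8 libraries and the other HIF1A-KD libraries were the lowest 3, so HIF1A-KD was higher only within number 1. The log2 change was −0.29 (SE 0.32), and −0.62 (SE 0.22) without HIF1A-KD 1.

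PHLDA2, a small protein with a pleckstrin homology domain, was the next most abundant member after H19 and lies at 2949503 to 2950650 of the same chromosome and strand. It held 147, 73.4, 200 and 111 RPKM in HIF1A-KD 1 to 4, against 108, 102, 121 and 192 RPKM in shCtrl 1 to 4. The lowest and the highest library were both HIF1A-KD, and HIF1A-KD was higher within 2 of the 4 numbers. The means of 133 ± 53.8 RPKM in HIF1A-KD and 131 ± 41.5 RPKM in shCtrl (SD, n = 4 each) gave a log2 change of −0.02 (SE 0.33), a difference well inside the spread.

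KCNQ1OT1 is a very long unspliced RNA, 91671 bases in the table (2629558 to 2721228 of chromosome 11, minus strand, hg19), so its RPKM is low for its reads. It held 0.0483, 0.0606, 0.0742 and 0.152 RPKM in HIF1A-KD 1 to 4 (202, 363, 321 and 530 reads) and 0.0620, 0.0343, 0.0831 and 0.0676 RPKM in shCtrl 1 to 4 (275, 136, 399 and 296 reads). The groups overlapped, with HIF1A-KD 4 highest. It did not pass the filter, and a fit on reads recovered from the RPKM, chosen after the data were seen, gave a log2 change of 0.31 (SE 0.40). KCNQ1, the potassium channel gene that holds KCNQ1OT1 on the opposite strand, had at most 2 reads in any library. The sources used here do not say if counting took account of strand.

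**Figure D2:**
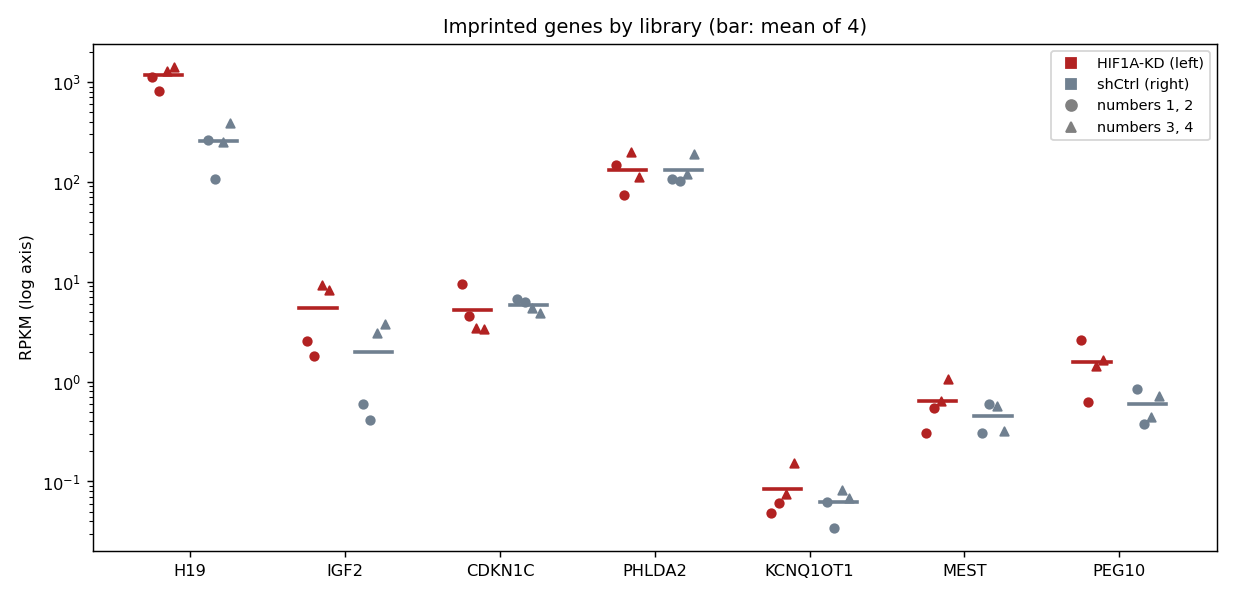
Level of 7 of the 9 imprinted genes in each library, in RPKM on a log axis. HIF1A-KD is left and shCtrl right for each gene, bars are means of 4, and the marker shape separates numbers 1 and 2 from 3 and 4. PEG3 and MEG3 are not drawn because they were listed at 0 in most or all libraries. H19 lies apart between the groups, and the other 6 overlap.

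The contrast genes outside 11p15 were low or listed at 0. PEG10 (chromosome 7, 94285637 to 94299006, plus strand, hg19) is a paternally expressed gene derived from a retrotransposon and needed for the placenta in mice. It held 2.61, 0.631, 1.44 and 1.66 RPKM in HIF1A-KD 1 to 4, against 0.847, 0.374, 0.441 and 0.720 RPKM in shCtrl 1 to 4. HIF1A-KD was higher within each number, by 1.69 to 3.27-fold, but HIF1A-KD 2 lay among the shCtrl libraries. The log2 change was 1.19 (SE 0.44). The values rest on 273 to 790 reads in HIF1A-KD and 107 to 272 reads in shCtrl.

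Unlike IGF2, PEG10 did not follow the split of the numbers. Numbers 3 and 4 averaged 0.957 times the level of numbers 1 and 2 in HIF1A-KD and 0.950 times in shCtrl. SGCE, the imprinted sarcoglycan gene that starts beside PEG10 on the opposite strand, was lower in HIF1A-KD within each number. It averaged 3.93 ± 1.01 RPKM in HIF1A-KD and 5.78 ± 1.77 RPKM in shCtrl (SD, n = 4 each), in groups that overlapped. SGCE was named after its values were seen and did not pass either fit over all genes.

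MEST (chromosome 7, 130126016 to 130146138, plus strand, hg19) encodes a hydrolase-like protein of the mesoderm. It held 0.306, 0.545, 0.634 and 1.07 RPKM in HIF1A-KD 1 to 4, against 0.309, 0.6002, 0.565 and 0.320 RPKM in shCtrl 1 to 4, or 42 to 123 and 45 to 89 reads. Only number 4 differed by more than a small amount, 3.36-fold, and the log2 change of 0.37 had an SE of 0.43.

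MEG3, the maternally expressed noncoding RNA of chromosome 14, had 3 reads in HIF1A-KD 1 and 1 read in HIF1A-KD 2, and 0 reads in the other 6 libraries. PEG3, a zinc finger gene on chromosome 19, was listed at 0 in all 8, and so was ZIM2, which covers it on the same strand. SNRPN was also listed at 0 everywhere, while SNURF, which lies wholly inside it on the same strand, reached 0.342 RPKM. A listed 0 of a gene that overlaps another does not by itself show that its RNA is absent, because the rule for shared reads is not given. None of 10 widely expressed reference genes was listed at 0 in any library.

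Levels can be ordered by RPKM, which accounts for length. In shCtrl the order of means was H19, PHLDA2, CDKN1C, IGF2, PEG10, MEST and KCNQ1OT1, and in HIF1A-KD it was H19, PHLDA2, IGF2, CDKN1C, PEG10, MEST and KCNQ1OT1. H19 lay clear of PHLDA2 in HIF1A-KD, whereas in shCtrl their ranges met, because H19 in shCtrl 2 (107 RPKM) was below most PHLDA2 values. PHLDA2 lay clear of the next gene in both groups, and CDKN1C lay clear of IGF2 in shCtrl. IGF2 (5.45 ± 3.82 RPKM) and CDKN1C (5.17 ± 2.87 RPKM) did not differ beyond their spread in HIF1A-KD. PEG10 and MEST overlapped in both groups. IGF2 and PEG10 overlapped in both groups as well, and KCNQ1OT1 lay below all MEST values.

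The authors' deposited table of the same comparison, made from the same libraries, lists 7 of the 9 genes. Its log2 fold changes before moderation were 2.12 for H19, 1.40 for IGF2 and 1.33 for PEG10. Those for MEST, KCNQ1OT1, PHLDA2 and CDKN1C in the authors' deposited table were 0.45, 0.38, −0.06 and −0.26. They are ratios of mean normalised reads and so weigh the high libraries more than a mean of log values does.

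Facts of the whole series were as follows. The HIF1A transcript ranged from 18.98 to 54.8 RPKM in HIF1A-KD and from 51.4 to 122 RPKM in shCtrl, and was lower in HIF1A-KD within each number (log2 change −1.34, limma adjusted p = 0.319 without and 0.0253 with the library number as a block). With the block, leaving out HIF1A-KD 1, 2 or 4 or shCtrl 1 or 2 ended that call (limma adjusted p from 0.0521 to 0.188). Each such fit in effect drops both libraries of that number, so it is also smaller. Read totals implied by the values ran from 38068729 to 65326907. All 10 markers of squamous epithelium were present, with summed levels of 25720 to 33160 RPKM in HIF1A-KD and 23770 to 31780 RPKM in shCtrl. Keratins KRT5, KRT6A, KRT14 and KRT16 make up most of that sum. Within the list KRT4, KRT13, SOX2 and KRT16 were higher in HIF1A-KD within each number, as H19 was, and these were named after their values were seen. KRT5, KRT6A, KRT14 and TP63 were higher within 2 of the 4 numbers, and IVL and DSG3 within 3. The share of all tested genes higher within each number was not computed. KRT4, a keratin of the upper esophageal layers, averaged 1521 ± 355 RPKM in HIF1A-KD and 386 ± 242 RPKM in shCtrl (SD, n = 4 each), with no overlap. HIF1A-KD was higher without overlap in 3.27% of all tested genes. KRT13, its partner keratin, averaged 801 ± 330 RPKM in HIF1A-KD and 253 ± 289 RPKM in shCtrl, in groups that overlapped. Of 9 fibroblast or mesenchyme markers only COL1A1 reached 0.5 RPKM, with sums of 14.1 to 19.3 RPKM in HIF1A-KD and 21.2 to 27.9 RPKM in shCtrl, and THY1 was at 0. Of 7 muscle markers none reached 0.5 RPKM. Of the 6 placental markers 5 were in the table and 2 reached it, KRT7 and PAPPA, with sums of 1.12 to 2.24 RPKM in HIF1A-KD and 0.861 to 1.21 RPKM in shCtrl, and GCM1, CGA and HLA-G stayed under it. In the leukocyte list 4 of 6 reached it, with CD68 the highest and PTPRC and CD3E at 0. In the endothelial list 1 of 4 did, VWF, and in the melanocyte list 1 of 4, PMEL. The part that the cell types behind these markers play in the results was not tested.

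Other genes of the 11p15 region, taken by position, were tested to place H19 and IGF2 among their neighbours. Their list was drawn up with earlier results of these data known. The test was limma on log2(RPKM + 0.1), two-sided, with Benjamini-Hochberg adjustment over all 11899 genes that held at least 0.5 RPKM in at least 4 libraries. It called 0.0420% of them, 0.0252% higher and 0.0168% lower in HIF1A-KD. With the library number added as a block it called 1.83%, 0.740% higher and 1.09% lower. Of 27 neighbours 13 could be tested, and 0 passed either limma fit or limma-voom. Without the block 2 of the 13 had an unadjusted p under 0.05 (SLC22A18 and IFITM10), where 7.80% of all tested genes did. With the block it was also 2 of the 13 (SLC22A18 and TNNI2), where 19.6% of all tested genes did. Of the 13, 84.6% had estimates above 0, and their median was 0.14. Over all tested genes the same share was 58.7% and the median 0.06.

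On the far side of H19 from IGF2, the nearest tested gene was MRPL23, a mitochondrial ribosomal protein gene 50.6 kb away. It averaged 25.8 ± 5.29 RPKM in HIF1A-KD and 23.8 ± 7.05 RPKM in shCtrl (SD, n = 4 each; log2 change 0.13, adjusted p = 0.985, limma). TNNI2, a fast skeletal troponin gene, held 25.6, 17.0, 12.8 and 27.3 RPKM in HIF1A-KD 1 to 4 and 27.7, 4.76, 8.80 and 7.76 RPKM in shCtrl 1 to 4. It was higher in HIF1A-KD within all numbers but 1, with a log2 change of 1.01 that did not pass (adjusted p = 0.707 without and 0.202 with the block, limma). SYT8, a synaptotagmin gene beside it, had a log2 change of 0.47. The lysosomal protease gene CTSD, by far the most abundant neighbour, averaged 396 ± 88.1 RPKM in HIF1A-KD and 381 ± 53.8 RPKM in shCtrl, a log2 change of 0.04 (SE 0.20). IFITM10 (0.77), DUSP8 (0.07) and MOB2 (0.17) did not pass either.

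Between IGF2 and KCNQ1OT1, the tetraspanin gene CD81 and TSSC4 had log2 changes of −0.19 and 0.16. Past CDKN1C, the imprinted transporter gene SLC22A18 held 10.95, 17.9, 7.56 and 7.14 RPKM in HIF1A-KD 1 to 4 and 4.97, 8.93, 4.31 and 5.603 RPKM in shCtrl 1 to 4. It was higher in HIF1A-KD within each number, with groups that overlapped (log2 change 0.81, adjusted p = 0.586 without and 0.0636 with the block, limma). It lies between CDKN1C and PHLDA2, whose estimates were −0.29 and −0.02. Beyond PHLDA2, the log2 changes of NAP1L4, the cysteinyl-tRNA synthetase gene CARS and OSBPL5 were 0.14, −0.07 and 0.03. Of the 14 neighbours not tested, 11 stayed under 0.5 RPKM in every library, and INS, C11orf21 and KCNQ1DN were listed at 0 throughout. ASCL2, a transcription factor gene known from placenta, was also under the filter and was named after its values were seen. It held 1.46, 0.621, 1.72 and 0.355 RPKM in HIF1A-KD 1 to 4 and 0.447, 0.263, 0.361 and 0.158 RPKM in shCtrl 1 to 4, and was not tested.

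**Figure D3:**
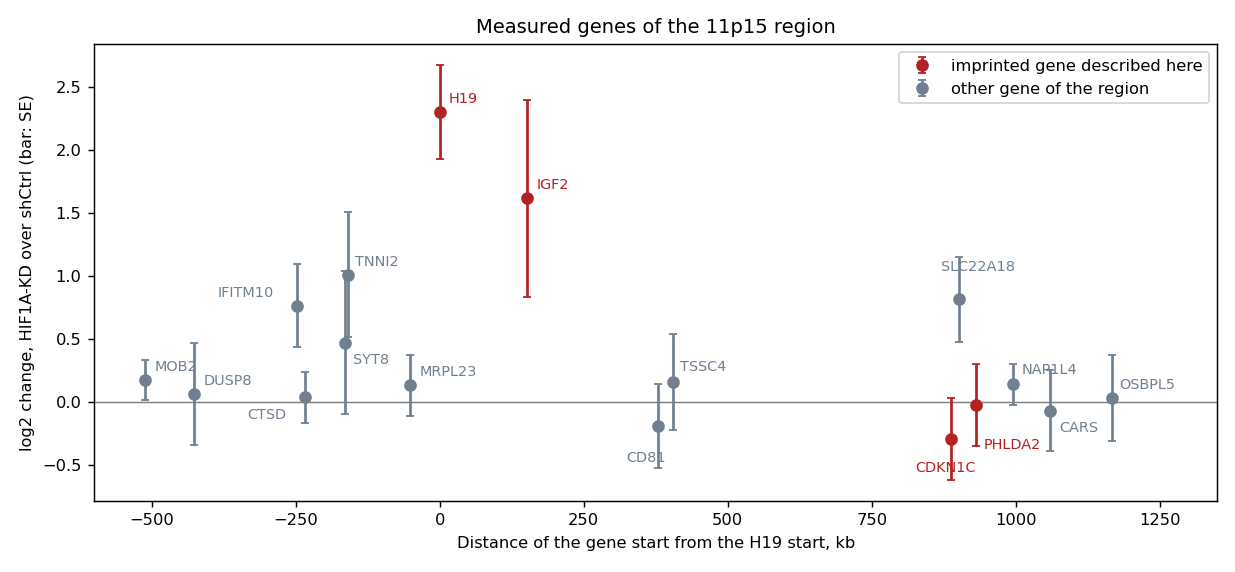
Log2 change of each tested gene of the 11p15 region (HIF1A-KD over shCtrl, points with SE) by the distance of its start from the start of H19 in kb. H19 (2.30) and IGF2 (1.62) have the highest estimates among the genes drawn, and the other 15, from MOB2 to OSBPL5, lie between −0.29 and 1.01. H19 was chosen for its change. Genes under the filter are not drawn, among them ASCL2, whose ratio of mean RPKM was 3.38 against 2.77 for IGF2.

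Imprinted genes outside 11p15 gave no call. Of 34 further genes 17 could be tested, 10 of them estimated above 0, and the median was 0.13. In limma 0 passed without or with the block, and 2 and 5 of the 17 reached an unadjusted p of 0.05, beside 7.80% and 19.6% of all tested genes. The most abundant were GNAS, which encodes the stimulatory G protein alpha subunit, and BLCAP. GNAS averaged 119 ± 9.52 RPKM in HIF1A-KD and 174 ± 22.3 RPKM in shCtrl (SD, n = 4 each; log2 change −0.54, adjusted p = 0.348 without and 0.0695 with the block). BLCAP averaged 40.8 ± 4.67 RPKM in HIF1A-KD and 59.8 ± 6.99 RPKM in shCtrl (log2 change −0.55, adjusted p = 0.348 and 0.0605). For both, every HIF1A-KD library lay below every shCtrl library, and their estimates were opposite in sign to that of H19. They were the 2 of the 17 whose groups did not overlap, beside 5.40% of all tested genes, 2.13% with HIF1A-KD lower. Whether either gene is imprinted in these cells was not tested. DLK1 and RTL1, which share the chromosome 14 domain of MEG3, were listed at 0.

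Of 17 genes of the insulin-like growth factor system, through which IGF2 acts, 11 could be tested and 8 passed in neither fit. In limma 0 passed without the block, and with it 2 rose and 1 fell. An unadjusted p under 0.05 was reached by 5 of the 11 in each fit, beside 7.80% of all tested genes without and 19.6% with the block. IGFBP6, a binding protein with a preference for IGF2, held 1.86, 3.39, 2.24 and 1.63 RPKM in HIF1A-KD 1 to 4, against 0.534, 1.84, 0.593 and 0.563 RPKM in shCtrl 1 to 4. HIF1A-KD was higher within each number, and shCtrl 2 lay within the HIF1A-KD range (log2 change 1.40, adjusted p = 0.354 without and 0.0485 with the block). IRS1, the adaptor that carries the receptor signal inward, held 23.0, 12.99, 24.5 and 23.3 RPKM in HIF1A-KD and 11.5, 9.24, 13.4 and 12.7 RPKM in shCtrl (log2 change 0.80, adjusted p = 0.354 and 0.0362). It was higher in HIF1A-KD within each number.

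IGFBP7, a secreted protein related to the binding proteins, held 48.2, 42.5, 27.7 and 42.6 RPKM in HIF1A-KD 1 to 4, against 111, 107, 103 and 79.8 RPKM in shCtrl 1 to 4. The groups lay far apart, and the log2 change was −1.33 (SE 0.21, adjusted p = 0.0629 without and 0.0224 with the block, limma). IGF2BP2, which binds IGF2 messenger RNA, averaged 35.8 ± 10.7 RPKM in HIF1A-KD and 39.4 ± 11.5 RPKM in shCtrl (SD, n = 4 each; adjusted p = 0.985). The groups did not overlap in 3 of the 11 tested genes, beside 5.40% of all tested genes. Besides IGFBP7 these were IGF2BP3 (means 8.99 in HIF1A-KD and 5.26 RPKM in shCtrl) and IGFBP2 (1.21 and 0.214 RPKM). Both were named after their values were seen and passed neither fit. IGFBP2 reached 0.5 RPKM only in HIF1A-KD and so passed the filter through those 4 libraries alone. That fixed its lack of overlap in advance, so nothing is read from the count of 3. The receptors, named outside the rule, were present in every library. IGF1R averaged 6.16 ± 0.700 RPKM in HIF1A-KD and 5.77 ± 1.16 RPKM in shCtrl. IGF2R, which clears IGF2 from the cell surface, averaged 22.1 ± 3.91 RPKM in HIF1A-KD and 23.2 ± 7.05 RPKM in shCtrl (SD, n = 4 each). IGF1, the other ligand, was at most 0.0134 RPKM.

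The enzymes and factors that keep imprints gave no call. Of 25 genes 19 could be tested, 14 with estimates above 0, and in limma 0 passed either fit, with 0 and 2 of the 19 at an unadjusted p under 0.05, beside 7.80% and 19.6% of all tested genes. The most abundant were TRIM28, the corepressor that protects imprints (log2 change −0.17, adjusted p = 0.986), and the cohesin gene RAD21 (0.18, adjusted p = 0.965). CTCF, the insulator protein of the H19 control region and named outside the rule, averaged 14.1 ± 1.05 RPKM in HIF1A-KD and 14.8 ± 1.78 RPKM in shCtrl (SD, n = 4 each).

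Among genes reported elsewhere as partners or targets of H19 or miR-675, 19 of 23 could be tested and 8 had estimates above 0. In limma 0 passed without the block, and 0 rose and 3 fell with it. An unadjusted p under 0.05 was reached by 4 of the 19 without and 5 with the block, beside 7.80% and 19.6% of all tested genes. The 3 were VIM, an intermediate filament gene (log2 change −1.53, adjusted p = 0.107 without and 0.0163 with the block), TGFBI, a matrix protein gene (−0.85, adjusted p = 0.272 and 0.0407), and CDH1, which encodes E-cadherin. CDH1 held 52.9, 79.8, 116 and 132 RPKM in HIF1A-KD 1 to 4, against 113, 145, 188 and 189 RPKM in shCtrl 1 to 4. It was lower in HIF1A-KD within each number, and the groups overlapped (log2 change −0.79, adjusted p = 0.545 without and 0.0318 with the block). HMGA1, a chromatin protein gene and the most abundant of the list after TGFBI, averaged 216 ± 29.7 RPKM in HIF1A-KD and 227 ± 49.9 RPKM in shCtrl (SD, n = 4 each).

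Each of these calls was lost in some fits with 1 library left out. With the block, 6 genes of the lists were called, and 0 without HIF1A-KD 2, shCtrl 1 or shCtrl 2, 2 without HIF1A-KD 1, HIF1A-KD 3 or shCtrl 3, and 3 without HIF1A-KD 4 or shCtrl 4. Their direction was the same in each of these fits. With the block, a library without its partner adds nothing to the estimate, so each such fit drops a whole number. The log2 change of VIM was −1.34 without HIF1A-KD 1 and also without shCtrl 1. TGFBI and VIM had an adjusted p of 0.0471 without HIF1A-KD 1 and 0.0509 without shCtrl 1 (limma). A lost call can come from the smaller fit, and reliance on 1 library cannot be told apart from that. Without a block, limma and limma-voom each called 0 of the 76 tested genes of these lists, and limma-voom was not run with the block.

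Of the other kinase inhibitors and G1 cyclins, the group to which CDKN1C belongs by function, 13 of 14 could be tested. In limma 0 passed either fit, with 0 and 1 of the 13 at an unadjusted p under 0.05, beside 7.80% and 19.6% of all tested genes. CDKN1A, which encodes p21, averaged 435 ± 155 RPKM in HIF1A-KD and 428 ± 118 RPKM in shCtrl (SD, n = 4 each; adjusted p = 1), and was far more abundant than CDKN1C. The log2 change of CCND1, cyclin D1, was 0.05 (adjusted p = 0.998).

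Of the relatives of PHLDA2, PHLDA3 had a log2 change of −0.18 and PHLDA1 of 0.24, and 0 of the 2 passed either limma fit, with 0 at an unadjusted p under 0.05. PHLDA1 held 83.3, 36.4, 274 and 78.5 RPKM in HIF1A-KD 1 to 4, against 62.4, 34.9, 71.3 and 218 RPKM in shCtrl 1 to 4. Its high libraries were HIF1A-KD 3 and shCtrl 4, the same 2 in which PHLDA2 was highest in its group. HIF1A and CDKN1A were also highest in these libraries, while PHLDA3 and CCND1 were not. The share of all tested genes highest there was not computed, so the pattern is not shown to be particular to the family.

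**Figure D4:**
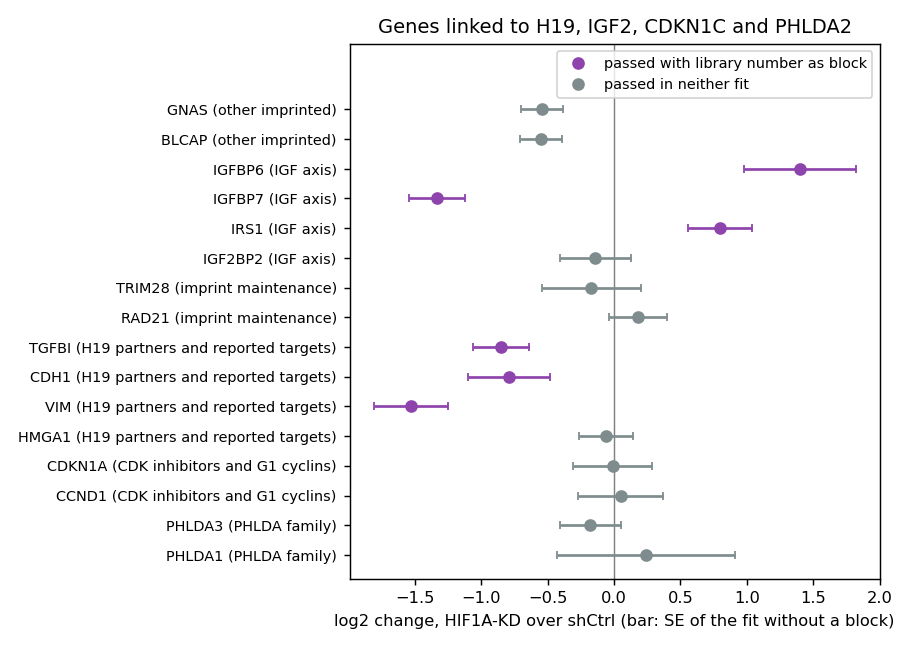
Log2 change (HIF1A-KD over shCtrl) with the SE of the fit without a block for the named genes of the pathway lists, each with its list in brackets. IGFBP6 and IRS1 lie to the right and IGFBP7, TGFBI, CDH1 and VIM to the left; these 6 passed with the library number as a block, and the others passed in neither fit.

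The genes whose pattern over the 8 libraries was most like that of H19 were found by the root mean square difference between log2(RPKM + 0.1) profiles, each centred on its own mean. The nearest were FETUB, a secreted protease inhibitor of the fetuin family (0.422), KIAA1211L (0.470), the receptor tyrosine kinase gene MERTK (0.552), TSPAN12, a tetraspanin gene (0.560), and the zinc finger gene ZNF117 (0.584). FETUB averaged 6.75 ± 1.56 RPKM in HIF1A-KD and 1.36 ± 0.621 RPKM in shCtrl (SD, n = 4 each), with the same log2 change as H19 to 2 decimals, 2.30. MERTK averaged 1.998 ± 1.31 RPKM in HIF1A-KD and 0.210 ± 0.1075 RPKM in shCtrl, and TSPAN12 0.883 ± 0.354 and 0.171 ± 0.134 RPKM. Both passed the filter through their HIF1A-KD libraries alone, which in part fixed their likeness to H19 in advance. The nearest genes are selected for likeness in the same libraries, so no test is given. Among the other imprinted members, PEG10 ranked 39th (0.743) and IGF2 157th (0.891) in nearness to H19 of all other tested genes, while MEST ranked 4359th, PHLDA2 4451st and CDKN1C 9872nd.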

How the data were processed

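The authors deposited a table named for raw counts whose values are RPKM, read here from the values. Multiplied by the table's gene length they gave whole reads for 100% of genes with a readable length (tolerance 0.01 read). Of 25369 genes, 597 had an unreadable length. Among the tools in the submitters' processing notes are HTSeq 0.6.1 and TopHat2 2.0.13. Both hg19 and hg38 appear there with no role given. Haplotype contig names in 251 entries are those of hg19. The authors' second deposited table gives a fold ratio with its log2 and p-values. Its direction, HIF1A-KD over shCtrl, was settled by comparing its log2 ratios with those of the recovered reads. Its columns of mean reads name no group and were not used. Its p-values were not used.

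Log2(RPKM + 0.1) was fitted with limma 3.58.1 (R 4.3.3), trend and robust moderation, without a block, keeping genes that reached 0.5 RPKM in 4 or more libraries. The threshold was an adjusted p of 0.05. Fold changes on this scale are understated for low genes. The fit was tested on simulated data with independent libraries and large changes only. That simulation held neither the pairing nor the split of library numbers seen here, so it does not show how the fit performs under them. The 9 genes, the lists and the tests were chosen with earlier results of these data known. Named were all 9 genes, every tested neighbour, the called and the 2 most abundant tested genes of each list, HIF1A, and the 5 genes nearest to H19, except where the text says otherwise.

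Deviations from the group means correlated between libraries of the same number at 0.754, 0.730, 0.252 and 0.257, all over a limit of 0.1, so the number was taken as pairing libraries, from the data and not the labels. This is uncertain for numbers 3 and 4, where HIF1A-KD 3 with shCtrl 4 gave 0.613 and HIF1A-KD 4 with shCtrl 3 gave 0.463. Counting intervals for single libraries were not computed, and depth per library is 38068729 to 65326907 reads. Alternatives tried were other pseudocounts, filters and scaling, limma-voom on the recovered reads, the block, each library left out, and numbers 1 and 2 or 3 and 4 alone.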

Additional observations from a re-analysis of the deposited data

How the results depend on the processing

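The log2 change of H19 ran from 1.94 to 2.56 over all alternatives run, both ends with a library left out. With the library number as a replicate block it was 2.30 with an SE of 0.17. In this balanced design the block alters the SE and not the estimate. IGF2 ranged from 1.12 to 2.09, PEG10 from 0.91 to 1.54, PHLDA2 from −0.25 to 0.23, CDKN1C from −0.62 to −0.13 and MEST from 0.12 to 0.63 with a library left out. The highest MEST value was without HIF1A-KD 1 and the lowest without HIF1A-KD 4. With a pseudocount of 1, IGF2 was 1.10 and PEG10 0.65.

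The number of genes called, 5, was 3 with a pseudocount of 1 or 0.01, 1 without a filter, 8 with median-of-ratios scaling, 3 with limma-voom and 0 in numbers 1 and 2 alone. It was 218 with the replicate block, and ran from 0 to 3 with a library left out. Calls among the 11p15 neighbours were 0 under all alternatives. Among the other lists 0 became 6 with the replicate block, which ran from 0 to 3 with a library left out and was 6 with median-of-ratios scaling. Within the block, leaving out a library removes its whole number from the estimate. Leaving out a library and scaling within the block were chosen after the data were seen. Causes were not tested. The low reads of MEST, MEG3 and KCNQ1 limit their precision.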

Other observations

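Within each group the levels of HIF1A and H19 ran in nearly the same order of libraries, while between the groups they lay in opposite directions. In HIF1A-KD 1 to 4, HIF1A held 27.6, 18.98, 54.8 and 45.0 RPKM and H19 held 1132, 806, 1297 and 1410 RPKM. In shCtrl 1 to 4, HIF1A held 95.2, 51.4, 89.8 and 122 RPKM and H19 held 265, 107, 251 and 392 RPKM. Library 2 was lowest for both genes in both groups. The order was the same for all 4 shCtrl libraries, and in HIF1A-KD libraries 3 and 4 changed places. With 4 libraries a group no correlation is given, and the pattern was noticed in the data and not tested. Library 2 was also lowest in both groups for IGF2, PHLDA2 and PEG10, but not for CDKN1C, MEST or KCNQ1OT1. The share of all tested genes with a similar order was not computed. The pattern is therefore not shown to be particular to HIF1A and H19.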
